A study of Danio rerio with 2 samples.

Results

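The ZFP36 family of zebrafish was described here through 4 genes, zfp36l1a, zfp36l1b, zfp36l2 and cth1. They were taken by their symbols in the authors' deposited table, with earlier results of these data known. The lists of other genes below were drawn up with the same knowledge. Each symbol matched 1 of the 32571 gene rows, and all 4 had a test among the 14810 rows that the authors tested. The data came from whole embryos of the AB strain at 6 hpf (hours post fertilization), around the start of gastrulation. A mock-injected control group was compared with a group injected with Dcp2-DN, a form of the decapping enzyme Dcp2 known as dominant negative. Pools of 40 to 50 embryos gave the total RNA, which was depleted of ribosomal RNA before stranded libraries were made, so mRNAs without a poly(A) tail were also measured. The labels list 1 sample for each group, whereas the design text speaks of 3 replicates.

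ZFP36 proteins carry a pair of CCCH zinc fingers that bind AU-rich elements in the 3′ untranslated regions of mRNAs. In mammals they recruit the CCR4-NOT deadenylase to the bound mRNA and associate with the decapping enzyme and its cofactors, and the mRNA is then degraded. Several mammalian family mRNAs hold AU-rich elements themselves, and Zfp36l2 is required for female fertility in the mouse. In zebrafish, cth1 was first described as a gene of oocytes and early embryos.

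The table gave 1 FPKM value per gene and group (fragments per kilobase of a transcript, relative to all mapped fragments), so no value below has an SD or an n. Depth is unknown, since the table held no counts. A call means that the authors' deposited table marked the gene significant, which required a q-value under 0.05 in their Cuffdiff analysis. The sources used here do not say if the 3 replicates were given to Cuffdiff, so the spread between replicates may be missing from the p-values, and any spread in them may be technical. FPKM values summed to 963061 for the mock group and 908503 for the Dcp2-DN group, and the median tested gene had a log2 ratio of 0.12. Of 14 genes listed as gastrula stage markers, all were tested and therefore detected in whole embryos. The list includes nanog and pou5f1, pluripotency factors that are also supplied maternally. The authors' deposited table called 2 (14.3%) higher, nanog (388 to 613 FPKM) and the organizer gene gsc (65.0 to 79.0 FPKM). It called 6 (42.9%) lower, led by the homeobox gene cdx4 (38.3 to 22.9 FPKM), the endoderm gene sox17 (6.22 to 4.18 FPKM) and the keratin gene krt4 (917 to 688 FPKM). Of all tested genes, 20.6% were called higher and 4.35% lower. In their top decile by mean FPKM, where many of these markers lie, among them nanog and krt4, the shares were 9.05% and 9.66%. In RNA from whole embryos, fewer cells of a type and less RNA per cell cannot be told apart. The part of these differences in the family's values was not tested. A second gene model with the symbol dcp2 (ENSDARG00000089419) stood at 0.0398 FPKM in the mock group and 212 FPKM in Dcp2-DN embryos. The higher value was thus in the group labelled as injected, although the authors' deposited table did not call this model (Cuffdiff q = 0.303). The other dcp2 model stood at 13.9 FPKM in the mock group and 16.7 FPKM in Dcp2-DN embryos and was not called either (Cuffdiff q = 0.109).

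Transcripts of 3 of the 4 chosen family members were higher in Dcp2-DN embryos and the fourth was not called. ZFP36, a further family gene outside this choice, was not called either. In the authors' deposited table, zfp36l2, cth1 and zfp36l1a were called higher by Cuffdiff, zfp36l1b had no call, and no member was called lower. Across the tested genes the rate was 20.6% for rises and 4.35% for falls, so rises were frequent outside the family as well. An unadjusted p under 0.05 was held by 3 members that were higher and 0 that were lower, beside 27.5% and 8.22% of the tested genes. At a q-value under 0.01 the calls were limited to zfp36l2 and cth1, beside 13.5% of tested genes called higher, and with a fold minimum of 1.5 again to zfp36l2 and cth1, beside 11.9%. Rises ranged from 1.28-fold to 2.36-fold. Whether the members differed from each other in their change was not tested, since the table held no values per library.

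**Figure D1:**
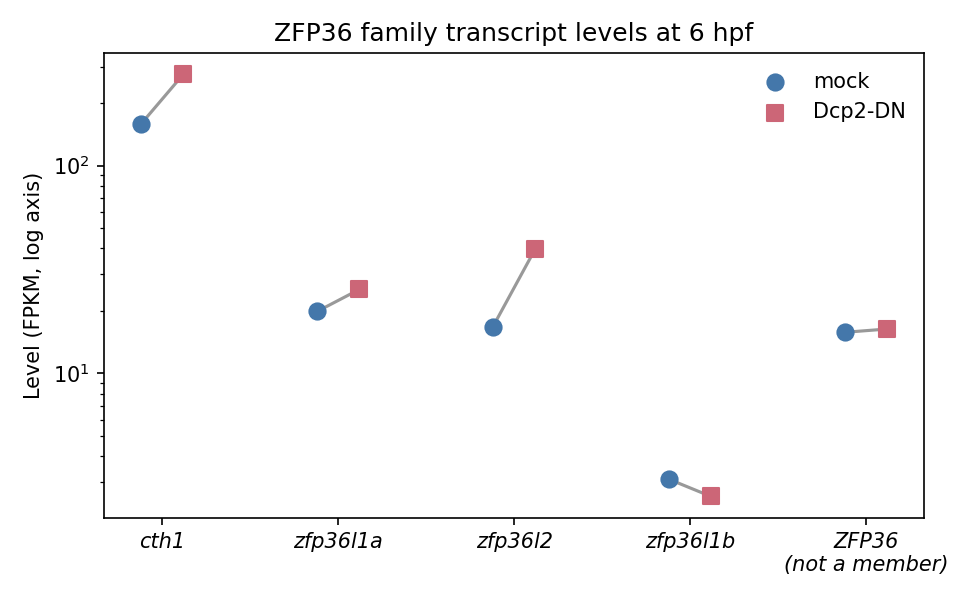
Level of each ZFP36 family gene in mock (blue circles) and Dcp2-DN embryos (red squares), in FPKM on a log axis, with 1 deposited value per gene and group and therefore no error bars. cth1 lies far above the others in both groups, the line of zfp36l2 is the steepest (16.8 to 39.7 FPKM), and zfp36l1b is the lowest; ZFP36 is a further family gene that the choice by symbol did not take.

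cth1, a family gene described in fish, was the most abundant member in both groups. cth1 (ENSDARG00000057328, chromosome 7, 19193860 to 19196954, coordinates on Zv9 as the authors' files give them) had 159 FPKM in the mock group and 276 FPKM in Dcp2-DN embryos. This 1.73-fold rise (log2 ratio 0.79 with a pseudocount of 0.1 FPKM) was called in the authors' deposited table with p = 5e-05, the lowest p in the table, which 1249 rows shared, and q = 0.000593. Of all tested genes, 853 had a higher level in mock and 525 in Dcp2-DN embryos. Rises were called less often among the most abundant genes. In the top level decile of tested genes, which holds cth1, 9.05% were called higher and 9.66% lower, and the median log2 ratio was -0.13. Of the 1481 genes of that decile, 28 (1.89%) had a larger log2 ratio than cth1.

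zfp36l2, the ortholog by name of mammalian ZFP36L2, had the largest rise of the family. zfp36l2 (ENSDARG00000021806, chromosome 12, 26904290 to 26907680) had 16.8 FPKM in the mock group and 39.7 FPKM in Dcp2-DN embryos, a 2.36-fold rise (log2 ratio 1.24). The authors' deposited table called it with p = 5e-05 and q = 0.000593. Of all tested genes, 264 (1.78%) had a larger log2 ratio. Within its own level decile (27.5 to 44.2 FPKM), where 23.6% were called higher and 4.73% lower, 7 of 1481 genes had a larger one. Deciles were cut on the mean of both groups, so the Dcp2-DN value of zfp36l2 helped to place it there. Its mock level alone lies in the range of level decile 6 (12.5 to 18.3 FPKM), where 30.2% were called higher and 3.17% lower. By the deposited values, zfp36l2 lay below zfp36l1a in mock embryos (16.8 and 19.9 FPKM) and above it in Dcp2-DN embryos. With 1 value per group, their order in mock embryos is not established.

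The 2 genes named after ZFP36L1, which in the mouse is needed for embryonic development, had log2 ratios of opposite sign, and of the pair zfp36l1a was called. zfp36l1a (ENSDARG00000016154, chromosome 17, 37960134 to 37963383) had 19.9 FPKM in the mock group and 25.4 FPKM in Dcp2-DN embryos. The 1.28-fold rise (log2 ratio 0.35) was called in the authors' deposited table (p = 0.00465, q = 0.0239), but its size was common: 4355 tested genes (29.4%) had a larger log2 ratio, as did 410 of the 1481 genes of its level decile, where 26.2% were called higher and 3.98% lower.

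zfp36l1b (ENSDARG00000021443, chromosome 20, 9756204 to 9761277) had 3.10 FPKM in the mock group and 2.56 FPKM in Dcp2-DN embryos. Its log2 ratio was -0.27, and the difference was not called in the authors' deposited table (p = 0.131, q = 0.279). Its level was low, with 11886 tested genes above it in mock embryos, and calls were rarer at such levels, with 14.1% of its level decile called higher and 2.84% lower. In that decile 1255 of 1481 genes (84.7%) had a larger log2 ratio than zfp36l1b.

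**Figure D2:**
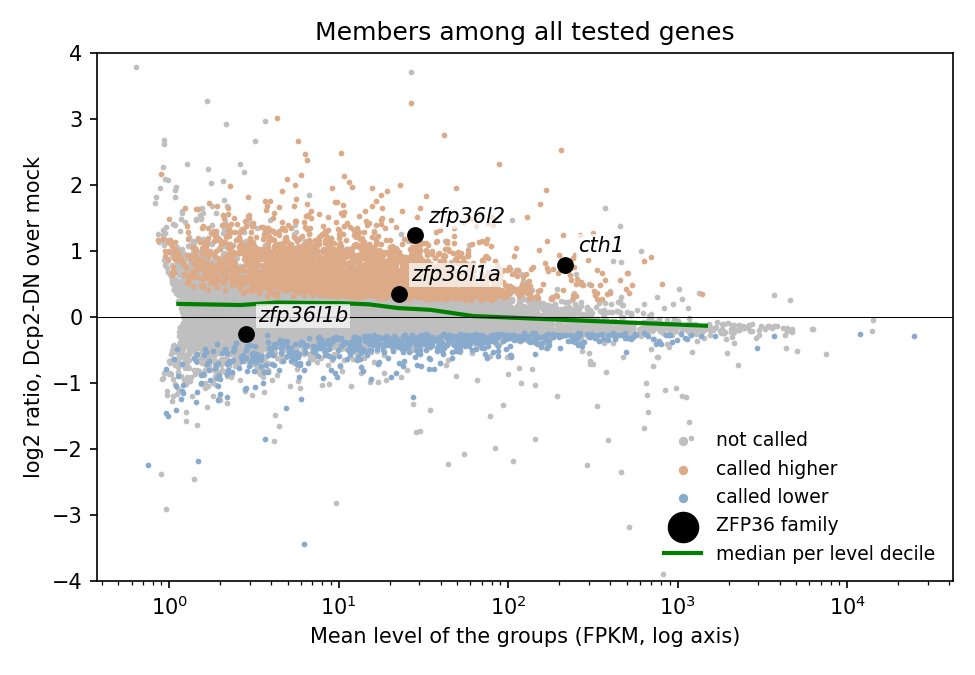
Log2 ratio of Dcp2-DN over mock (pseudocount 0.1 FPKM) against the mean level of both groups (FPKM, log axis) for the tested genes, coloured by the authors' call, with the 4 family members in black and the median of each level decile as a green line. zfp36l2 and cth1 lie near the upper edge of the genes of their level. zfp36l1a lies above the median of its level decile (0.13), with 410 of 1481 genes above it, and zfp36l1b below the median of its own. The 25 genes beyond a log2 ratio of 4 in either direction are not drawn.

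On the FPKM scale, which is per length, the levels in mock embryos ran from cth1 over zfp36l1a and zfp36l2 to zfp36l1b. In Dcp2-DN embryos the order was cth1, zfp36l2, zfp36l1a and zfp36l1b. cth1 stood 8.01 times above zfp36l1a in mock and 10.9 times in Dcp2-DN embryos, and 9.47 times above zfp36l2 in mock but 6.94 times in Dcp2-DN embryos. zfp36l1a was 6.42 times zfp36l1b in mock and 9.92 times in Dcp2-DN embryos. The neighbours zfp36l1a and zfp36l2 were close in mock embryos, at 19.9 and 16.8 FPKM, and no spread is known by which to separate them.

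Summed over the 4 members, the level went from 199 FPKM in mock to 344 FPKM in Dcp2-DN embryos, 1.73 times as high. cth1 made up 80.0% of this sum in mock embryos and 80.3% in Dcp2-DN embryos. The share of zfp36l2 went from 8.45% to 11.6%, while that of zfp36l1a went from 9.99% to 7.39% and that of zfp36l1b from 1.56% to 0.745%. Without cth1 the sum of the other members was 39.8 FPKM in the mock group and 67.7 FPKM in Dcp2-DN embryos, or 1.70 times. With ZFP36 added to the 4 members, the sum was 215 FPKM in the mock group and 360 FPKM in Dcp2-DN embryos, or 1.68 times.

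A further row named ZFP36 (ENSDARG00000044395), the symbol of tristetraprolin, the founding member of the family in mammals, lay on the unplaced scaffold Zv9_NA234 from 5621 to 7517 and was not among the chosen symbols. It had 15.8 FPKM in the mock group and 16.4 FPKM in Dcp2-DN embryos, 1.04 times as high, and was not called in the authors' deposited table (p = 0.692, q = 0.823). Its level in mock embryos was close to that of zfp36l2 (16.8 FPKM), whereas in Dcp2-DN embryos zfp36l2 was at 39.7 FPKM. RefSeq lists zfp36l2 as a synonym of zfp36l1a too, so the names of this family are not used alike everywhere, and the gene IDs above identify the rows.

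The genes beside cth1, zfp36l2 and zfp36l1a were read next, a comparison chosen after their values were seen. No other locus in the table overlapped that of a member. For each of these 3 members the nearest tested gene on the left was an MTA gene, which encode subunits of the NuRD chromatin remodelling complex. The pairs were cth1 with mta2, at a distance of 3301 bases, zfp36l2 with mta3, at 87917 bases, and zfp36l1a with MTA1, at 173730 bases.

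None of these MTA genes was called in the authors' deposited table. mta2 had 178 FPKM in the mock group and 148 FPKM in Dcp2-DN embryos (q = 0.154), mta3 had 49.5 and 46.5 FPKM (q = 0.702), and MTA1 had 21.5 and 23.1 FPKM (q = 0.577). Each had a lower log2 ratio than the family member beside it, at -0.27 for mta2, -0.09 for mta3 and 0.10 for MTA1. These members were the ones called higher, and 29.4%, 1.78% and 7.74% of tested genes had a larger log2 ratio than zfp36l1a, zfp36l2 and cth1. Most tested genes would therefore lie below them, and the neighbours on the other side did so too.

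On the other side of cth1, taf6l, which encodes a TAF6-like subunit of histone acetyltransferase complexes, rose from 13.6 to 20.7 FPKM (log2 ratio 0.60), a call in the authors' deposited table (q = 0.000593). taf6l began 3598 bases from the end of the cth1 locus. The neighbours of zfp36l2 and zfp36l1a on that side were ppm1bb, at 45.0 and 42.8 FPKM, and slc25a21, at 4.42 and 4.55 FPKM, neither called in the authors' deposited table.

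**Figure D3:**
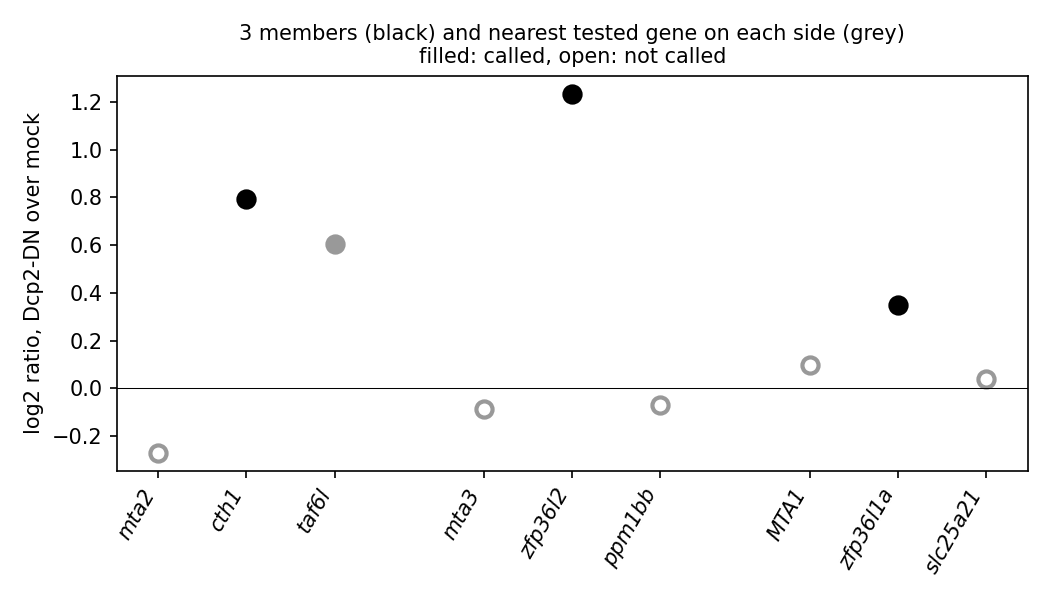
Log2 ratio of Dcp2-DN over mock for cth1, zfp36l2 and zfp36l1a (black) and for the nearest tested gene on either side of it (grey); filled points were called by the authors and open points were not. Both genes beside zfp36l2 and both beside zfp36l1a lie near 0, and taf6l beside cth1 is called higher at 0.60.

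Genes with levels most like those of each member were found by the distance between their pairs of log2 FPKM values, a pattern of only 2 groups. zfp36l2 was closest to osbpl3a, an oxysterol-binding protein gene (16.4 to 38.4 FPKM, distance 0.061), and to ap1m1, a clathrin adaptor subunit gene (16.6 to 37.1 FPKM, distance 0.10). cth1 was closest to zgc:100951 (152 to 274 FPKM, distance 0.072) and to CABZ01013938.1 (167 to 271 FPKM, distance 0.074). Genes nearest to zfp36l1a were chic2 (19.7 to 25.3 FPKM) and tiprl (20.1 to 25.4 FPKM), and those nearest to zfp36l1b were h1f0 (3.12 to 2.56 FPKM) and AFAP1L2 (3.13 to 2.55 FPKM). The distances of zfp36l2 and cth1 to their nearest genes were larger than those of zfp36l1a (0.013) and zfp36l1b (0.0085).

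Of 11 tested genes for other proteins that bind AU-rich elements, 1 (9.09%) rose and 1 fell by the calls of the authors' deposited table. The share of rises was below the 20.6% of all tested genes, and that of falls, from this single gene, above their 4.35%. However, hnrpdl, celf1, tia1l, khsrp, elavl1, tia1 and hnrnpd lie in the top level decile. In that decile 9.05% of genes were called higher and 9.66% lower, near the shares of this list, and the median log2 ratio was -0.13. The 11 AU-rich element binders had a median log2 ratio of -0.07, against 0.12 for all tested genes. elavl1, which encodes HuR, a protein that stabilizes AU-rich mRNAs in mammals, was the most abundant of them at 358 FPKM in the mock group and 341 FPKM in Dcp2-DN embryos, and was not called in the authors' deposited table (q = 0.698). tia1l, related to the translational repressor TIA1, fell from 286 to 242 FPKM (1.18-fold lower, q = 0.0486), and auh, an RNA-binding enzyme of mitochondria, rose from 3.73 to 5.45 FPKM (1.46-fold, q = 0.0371) in the authors' deposited table. The decay factor gene khsrp was at 266 and 225 FPKM and hnrnpd, which encodes AUF1, at 137 and 114 FPKM, without a call in the authors' deposited table. Also without a call, tial1 (35.2 to 44.7 FPKM), elavl2 (21.5 to 25.8 FPKM) and celf2 (1.23 to 1.77 FPKM) were higher, while hnrpdl, celf1 and tia1 were lower. At an unadjusted Cuffdiff p under 0.05, 2 genes of this list were higher and 2 lower, beside 27.5% and 8.22% of all tested genes.

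Of 14 tested rows named as subunits of CCR4-NOT, which ZFP36 proteins recruit, 5 (35.7%) rose and 0 fell by the calls of the authors' deposited table. Of all tested genes, 20.6% rose and 4.35% fell. The share of rises depends on level, from 9.05% in the top level decile, which holds cnot6 and cnot8, to 30.2% in level decile 6. The shares of this list and of the lists below were not matched for level. The median log2 ratio of the 14 was 0.20, beside 0.12. The rows were listed by name and include both CNOT4 rows, of which CNOT4 (1 of 2) was called higher (15.1 to 19.3 FPKM, q = 0.0341 by Cuffdiff). Whether each listed row encodes a stable subunit of the complex was not examined. An unadjusted Cuffdiff p under 0.05 was held by 6 higher and 0 lower rows, beside 27.5% and 8.22% of all tested genes. The catalytic subunit genes cnot7 (4.55 to 8.00 FPKM, 1.76-fold), CNOT6 (2 of 2) (18.0 to 28.6 FPKM, 1.59-fold) and cnot8 (111 to 150 FPKM, 1.35-fold) led them. The most abundant subunit gene, cnot6, also catalytic, was at 141 and 160 FPKM without a call in the authors' deposited table (q = 0.158). cnot1, the scaffold that ZFP36 proteins contact in mammals, was at 75.5 and 70.4 FPKM and was not called in the authors' deposited table (q = 0.774), and 5 other loci overlapped its locus.

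Of 16 tested rows for decapping and exonuclease partners, which include both dcp2 models, 6 (37.5%) rose and 0 fell by the calls of the authors' deposited table, where all tested genes had 20.6% and 4.35%, and the median log2 ratio was 0.27, beside 0.12. An unadjusted Cuffdiff p under 0.05 was held by 7 higher and 0 lower rows, where all tested genes had 27.5% and 8.22%. The largest called rises were lsm1 (10.4 to 21.2 FPKM, 2.04-fold), a subunit of the LSM ring that activates decapping, the helicase gene ddx6 (30.6 to 52.0 FPKM, 1.70-fold) and lsm14b (46.2 to 77.7 FPKM, 1.68-fold), a component of mRNA storage particles. pnrc2, a decapping coactivator and the most abundant of these genes, was at 4198 and 5028 FPKM and was not called in the authors' deposited table (q = 0.704). edc3, a decapping enhancer, was at 16.8 and 17.9 FPKM and the exonuclease gene xrn1 at 49.9 and 42.8 FPKM, neither called in the authors' deposited table.

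In mammals the p38 kinases act through MAPKAPK2 to phosphorylate ZFP36 proteins, which then bind 14-3-3 proteins, while the phosphatase PP2A reverses this. These groups were listed together with the kinase genes akt2 and akt2l, neither of them called. Of the 24 tested genes, 5 (20.8%) rose and 2 (8.33%) fell by the calls of the authors' deposited table. Rises were thus about as frequent as among all tested genes (20.6%, with 4.35% for falls). At an unadjusted Cuffdiff p under 0.05 the balance was the other way, with 5 higher and 7 lower, beside 27.5% and 8.22% of all tested genes. Among 14-3-3 genes, ywhag1 and ywhaqa were higher by that threshold, while ywhae2, ywhaqb, ywhaz, ywhag2 and ywhabb were lower. The median log2 ratio was -0.02. The 14-3-3 gene ywhag1 (1.21 to 2.44 FPKM, 2.02-fold), the p38 gene mapk14b (23.1 to 30.8 FPKM, 1.33-fold) and mapkapk5 (7.51 to 9.93 FPKM, 1.32-fold) rose. mapkapk3 (31.0 to 24.6 FPKM, 1.26-fold lower) and the 14-3-3 gene ywhae2 (89.0 to 72.6 FPKM, 1.23-fold lower) fell. mapkapk2a itself was at 107 and 119 FPKM and was not called in the authors' deposited table (q = 0.252), nor was the most abundant gene of these groups, the 14-3-3 gene ywhae1, at 311 and 292 FPKM (q = 0.622).

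Zebrafish orthologs of mammalian mRNAs known for AU-rich elements or as ZFP36 family targets were called higher more often than lower. Of 70 tested rows, 25 (35.7%) rose and 1 fell by the calls of the authors' deposited table, beside 20.6% and 4.35% of all tested genes, and the median log2 ratio was 0.31. These genes were listed by what is known in mammals, and whether the zebrafish mRNAs hold AU-rich elements was not examined. The largest called rises were hbegfa (1.49 to 10.03 FPKM, 6.74-fold) and hbegfb (2.91 to 8.10 FPKM, 2.79-fold), which encode EGF receptor ligands, and the growth arrest gene gadd45aa (14.9 to 42.8 FPKM, 2.87-fold). The only row called lower was 1 of 3 rows named notch1a (67.3 to 54.5 FPKM, 1.23-fold lower).

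When these rows were split by role, a split made after the values were seen, each count is to be set beside the 20.6% called higher and 4.35% called lower of all tested genes. Growth and cell cycle genes had 7 of 14 (50%) called higher against 0 called lower, by the authors' deposited table. Among them cdkn1a, which encodes the cell cycle inhibitor p21, rose from 38.3 to 77.2 FPKM (2.01-fold), E2F1 from 5.52 to 8.95 FPKM (1.62-fold) and mych from 451 to 578 FPKM (1.28-fold), while ccnd1, an AU-rich cyclin mRNA in mammals, was at 610 and 637 FPKM without a call. Early transcription factor genes had 6 of 15 (40%) called higher against 0 called lower, by the authors' deposited table. fos went from 7.35 to 15.1 FPKM (2.05-fold), atf3 from 4.17 to 9.38 FPKM (2.25-fold), jun from 36.3 to 63.7 FPKM (1.75-fold) and klf2a from 30.1 to 48.9 FPKM (1.62-fold).

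Cytokines, growth factors and other ligands had 3 of 8 (37.5%) called higher against 0 called lower, by the authors' deposited table. The third besides the hbegf genes was il1b, an interleukin gene, at 2.72 FPKM in the mock group and 6.95 FPKM in Dcp2-DN embryos (2.56-fold). The best known mammalian target of ZFP36 is the mRNA of tumour necrosis factor, for which the table held the row tnfa, listed at 0 in both groups, and the row tnfb, at 15.1 and 15.7 FPKM (q = 0.811). Signalling inhibitors had 3 of 9 (33.3%) called higher against 0 called lower, by the authors' deposited table, among them the MAP kinase phosphatase gene dusp1 (277 to 362 FPKM, 1.31-fold). dusp6, another such phosphatase gene, was at 144 and 141 FPKM without a call in the authors' deposited table. Survival genes had 2 of 9 (22.2%) called higher and 0 lower, near the share of all tested genes. Those called were PIM3 (27.1 to 40.5 FPKM, 1.49-fold) and mcl1a (47.0 to 57.9 FPKM, 1.23-fold). Developmental regulators had 3 of 10 (30%) called higher against 1 called lower, by the authors' deposited table. The remaining members of the list had 1 of 5 (20%) called higher and 0 lower, with a median log2 ratio of 0.0041. At an unadjusted Cuffdiff p under 0.05, 31 of all 70 rows were higher and 4 lower, beside 27.5% and 8.22% of all tested genes. Growth and cell cycle genes had 7 higher and 1 lower, early transcription factors 8 and 1, ligands 4 and 1, and developmental regulators 4 and 1. Signalling inhibitors had 3 higher and 0 lower, survival genes 4 and 0, and the remaining members 1 and 0.

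CCCH zinc finger genes outside the chosen symbols are the closest comparison by protein domain. Of 31 tested, 4 (12.9%) rose and 0 fell by the calls of the authors' deposited table, beside 20.6% and 4.35% of all tested genes. Their median log2 ratio was 0.07, below the overall 0.12. The 31 include ZFP36 and also zc3hc1, whose symbol stands for a C3HC and not a CCCH finger, and which was not called. At an unadjusted Cuffdiff p under 0.05, 6 were higher and 1 lower, beside 27.5% and 8.22%. The called genes were the splicing regulator mbnl1 (1.87 to 10.8 FPKM, 5.78-fold), ZC3H8 (6.59 to 12.4 FPKM, 1.88-fold), and the makorin genes mkrn4 (422 to 566 FPKM, 1.34-fold) and mkrn2 (14.6 to 19.6 FPKM, 1.34-fold, its locus overlapped by 1 other). rc3h1, which encodes Roquin, a CCCH protein that destabilizes mRNAs through stem-loops, was at 23.9 and 23.6 FPKM and was not called in the authors' deposited table (q = 0.922). No test compared the family with these genes.

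**Figure D4:**
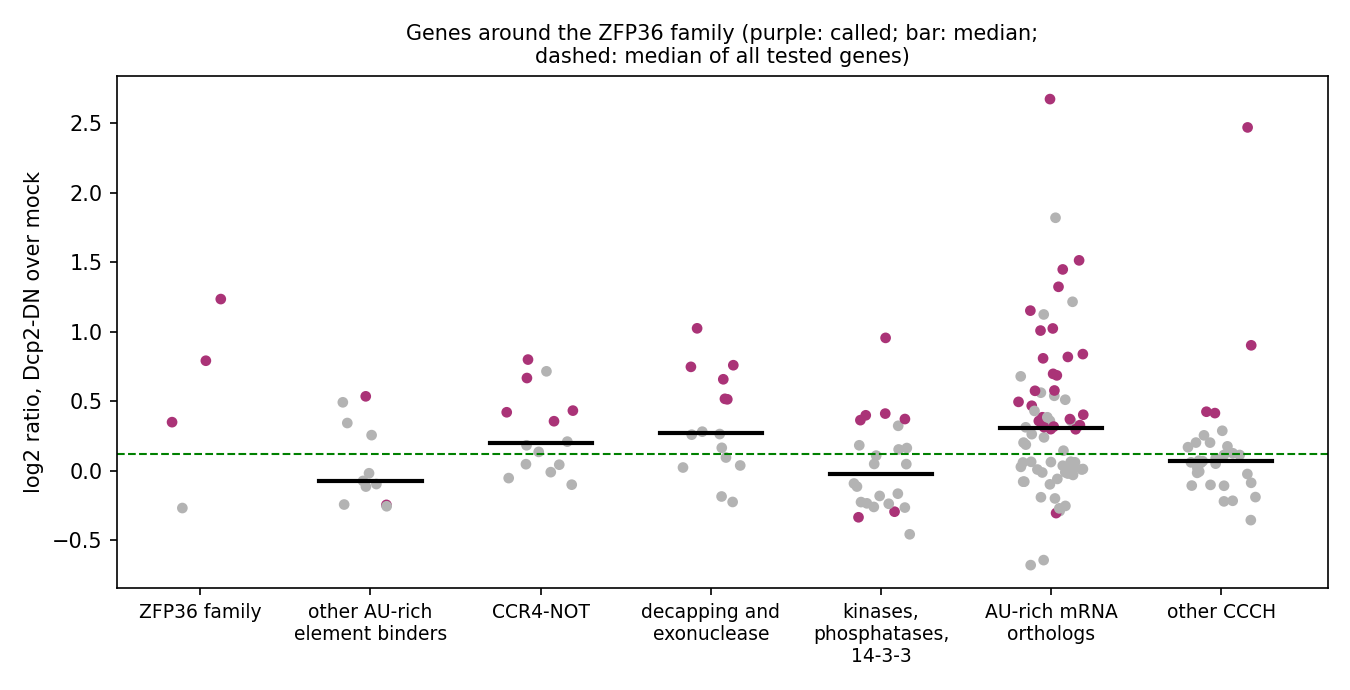
Log2 ratio of Dcp2-DN over mock for each tested gene of the family and of the groups around it, with called genes in purple, the median of each group outside the family as a black bar and the median of all tested genes (0.12) as a dashed line. The medians of CCR4-NOT, of decapping and exonuclease partners and of the AU-rich mRNA orthologs lie above the dashed line, and those of the other AU-rich element binders, the regulators and the other CCCH genes lie below it; the dcp2 model at a log2 ratio of 10.56 is not drawn.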

How the data were processed

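One gene-level comparison table of the whole series was used. Per the file headers it is Cuffdiff output, and TopHat 1.4.0, Cuffdiff 2.1.1 and the assembly Zv9 (also called danRer7) are named in the submitters' processing notes. The sources used here do not give the annotation, the scaling between libraries or any use of strand in counting. For each gene the authors deposited an FPKM value per group. The p-value and q-value per gene are the authors' deposited results, and each of the 32571 rows was called exactly when it was tested and its q-value was under 0.05. The 17761 rows without a test entered no count of calls. Row labels mockB and DCP2 were matched to the groups through the sample titles.

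The deposited fold change column held spreadsheet errors and was left out. A log2 ratio here is the log2 of Dcp2-DN over mock after 0.1 FPKM was added to each value, which understates changes at low levels, and folds are ratios of FPKM without a pseudocount. Level deciles split the tested genes by mean FPKM. With 1 value per group, no error, count model or test leaving out a replicate was possible, and lists are described by counts and medians. Symbols were matched without regard to case or copy number suffix. The members and lists were chosen with earlier results of these data known. Named genes were the members, dcp2, up to 3 called genes per direction and list with at least 1 FPKM in the higher group, a list's most abundant gene where it was not called, and the 2 genes of nearest levels per member. Other genes were named after their values were seen. Python 3.11.15, NumPy 2.4.6, pandas 2.3.3 and matplotlib 3.10.9 were used. The code that counts calls was checked on planted calls without noise, which does not test the authors' calls. The neighbours of zfp36l1b are not reported here.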

Additional observations from a re-analysis of the deposited data

How the results depend on the processing

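The members kept their direction under every setting, but these settings could not have reversed it. Pseudocounts of 0.01 and 1 FPKM cannot change the sign of a log2 ratio. Centring on all genes whose mean reached 1 FPKM takes 0.12 off each log2 ratio, and every rise was larger than that. Centring on ribosomal protein genes adds 0.22, their median being -0.22, and the log2 ratio of zfp36l1b was -0.27. Ribosomal protein genes are not an unchanged reference. Of 80 tested, 0 were called higher and 16 (20%) lower, beside 20.6% and 4.35% of all tested genes. Over these settings the log2 ratio lay between 1.12 and 1.46 for zfp36l2, 0.67 and 1.01 for cth1, 0.23 and 0.57 for zfp36l1a, and -0.38 and -0.04 for zfp36l1b. At a q-value under 0.01, and likewise with a fold of at least 1.5, 2 members were called higher and 0 lower, with zfp36l1a no longer called.

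Counts in the surrounding lists moved by over 1.5 times as follows, and fewer genes pass a stricter threshold by construction. Of all tested genes, 13.5% were called higher at q under 0.01 and 11.9% with a fold of at least 1.5. Their shares called lower at these thresholds are not given, but cannot exceed the 4.35% at q under 0.05. Counts of 0 lower in small lists are therefore not read as a result. At q under 0.01, other AU-rich element binders had 0 of 11 called higher and 0 lower, and regulators of the family 2 of 24 higher and 0 lower. AU-rich mRNA orthologs had 0 lower, other CCCH genes 2 of 31 higher and gastrula markers 1 of 14 higher. With a fold of at least 1.5, other AU-rich element binders had 0 of 11 higher and 0 lower, and rows named as CCR4-NOT subunits 2 of 14 higher. Regulators had 1 of 24 higher and 0 lower, and AU-rich mRNA orthologs 12 of 70 higher and 0 lower. Other CCCH genes had 2 of 31 higher, and gastrula markers 1 of 14 higher and 1 lower. In the other 61 recomputed values no log2 ratio or median changed sign and no count moved by over 1.5 times. A pseudocount could not have changed the sign of a gene's log2 ratio. Centring on ribosomal protein genes moved the log2 ratio of zfp36l1a from 0.35 to 0.57 and that of zfp36l1b from -0.27 to -0.04. No paired analysis was possible because the table holds 1 value per gene and group. Depth is unknown, so the precision of the low zfp36l1b values is not known.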
